A study of Mus musculus with 16 samples.

Results

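Granulosa cells, the somatic cells that surround the oocyte, are held in their identity by a small set of transcription factors, and 8 of their genes were followed here: Foxl2, Foxo1, Nr5a2, Nr0b1, Gata4, Gata6, Wt1 and Emx2. They were chosen by name, with earlier results of these data known. Of the 34945 probe sets with a single gene symbol, 18 were annotated to them. Of the 8 genes, 7 had a probe set over the signal filter (a mean log2 signal of 4.18) and were tested among 12172 genes. Nr0b1 lay under it and is given as levels only. The arrays held preantral to small antral follicles of female C57BL/6Tac mice, aged 6 to 8 weeks, cultured with or without anti-Müllerian hormone (AMH), a granulosa cell hormone of the TGF-β family. The 4 groups were follicles with 50 ng/ml recombinant AMH for 24 h, control follicles without added AMH for 24 h, AMH-treated follicles at 12 h and control follicles at 12 h, with 4 arrays each. The medium of every group held the gonadotropins FSH at 80 IU/L and LH at 10 IU/L. Each experiment pooled the follicles of 8 mice, both arms of a pair came from one pool, and each array held RNA of 6 to 9 follicles. No group without FSH and LH, and no uncultured follicles, were among the samples. The questions are whether these genes differed between 24 h and 12 h of culture and whether they differed with AMH.

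FOXL2 is a forkhead factor without which adult mouse granulosa cells take on features of Sertoli cells, their counterparts in the testis. FOXO1, another forkhead factor, is abundant in granulosa cells of growing follicles, and FSH inactivates it through the PI3K and AKT kinases. NR5A2 (LRH-1) is a nuclear receptor that mouse granulosa cells need for ovulation, and NR0B1 (DAX1) is a corepressor of NR5A receptors. GATA4 and GATA6 are zinc finger factors that act together in follicle development, WT1 is a zinc finger factor of gonad formation, and EMX2 is a homeobox factor needed to form the urogenital tract.

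The sequences just upstream of Foxl2 and Nr5a2 are shown because, of the members, these 2 genes had the largest changes with time in control follicles. Each is the window of 250 bases before a RefSeq transcription start in build GRCm38.p6, 5′ to 3′ on the gene's strand, and capitals mark GATA boxes. The Foxl2 window is chr9:98955357-98955606 on the plus strand. The Nr5a2 windows, before starts 6818 bases apart, are chr1:136960449-136960698 and chr1:136953631-136953880, both on the minus strand.
Foxl2: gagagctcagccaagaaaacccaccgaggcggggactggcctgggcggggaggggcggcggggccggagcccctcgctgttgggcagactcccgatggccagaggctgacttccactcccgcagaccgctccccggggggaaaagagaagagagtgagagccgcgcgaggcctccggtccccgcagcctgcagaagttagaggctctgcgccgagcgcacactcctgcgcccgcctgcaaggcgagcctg
Nr5a2, upstream start: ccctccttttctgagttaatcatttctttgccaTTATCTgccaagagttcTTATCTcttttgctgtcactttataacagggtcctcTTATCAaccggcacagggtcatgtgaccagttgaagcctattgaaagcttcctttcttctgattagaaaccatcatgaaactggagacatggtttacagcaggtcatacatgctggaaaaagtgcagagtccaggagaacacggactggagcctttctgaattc
Nr5a2, downstream start: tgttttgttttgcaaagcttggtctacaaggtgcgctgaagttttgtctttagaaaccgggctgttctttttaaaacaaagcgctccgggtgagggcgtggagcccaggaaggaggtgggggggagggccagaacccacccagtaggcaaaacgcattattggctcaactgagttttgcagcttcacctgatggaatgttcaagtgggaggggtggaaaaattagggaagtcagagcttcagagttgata

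The Foxl2 window had a GC content of 70.8%, against a median of 52.4% over the 32851 windows of all genes, and the Nr5a2 windows had 43.2% and 49.6%. A search of both strands used 6 motifs: a forkhead core (TAAACA), 2 forms of the GATA box (AGATAA and TGATAA), the NR5A site (AAGGTCA), a homeobox core (TAATTA) and the cAMP response element (TGACGTCA). They occurred in 12%, 9.99%, 7.94%, 4.08%, 4.84% and 1.55% of all windows. No motif overlapped another in the members' windows. The upstream Nr5a2 window held 3 GATA boxes, all as the reverse complement, beginning 217, 200 and 164 bases before the start. Of all windows, 16.6% held at least 1 such box and 0.371% held at least 3. No match was found in the Foxl2 window, the downstream Nr5a2 window or the windows of Foxo1, Emx2 and Nr0b1. The Foxl2 window lies inside the 296 bases between Foxl2 and Foxl2os, a noncoding gene on the opposite strand.

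The deposited values were MAS5 signals, already scaled to a trimmed mean of 150.001 on every array. Levels below are log2(signal + 1.46), and a change is a difference of group means on this scale with its standard error (SE) from limma, which understates changes of dim genes. Arrays of one group correlated at 0.955 to 0.974. Nothing in the labels separates the experiments by animal beyond the pool, and the number of arrays limits the precision. The label of granulosa cells was checked against 11 markers, of which 10 were measured. Inha, the inhibin alpha subunit, averaged 11.43 ± 0.16 in AMH-treated and 11.53 ± 0.43 in control follicles at 24 h, against 10.70 ± 0.47 in AMH-treated and 10.52 ± 0.66 in control follicles at 12 h (SD, n = 4 each). The array signal of Amh was dim, at 3.25 ± 1.05 in AMH-treated and 3.85 ± 0.38 in control follicles at 24 h, against 4.81 ± 0.25 in AMH-treated and 4.92 ± 0.87 in control follicles at 12 h. Cyp19a1, the aromatase gene, had no probe set under this symbol.

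Most of the factors were higher after 24 h of culture than after 12 h. Averaged over both arms, 5 of the 7 tested members (Foxl2, Foxo1, Nr5a2, Gata4 and Gata6) rose and none fell, while 15.3% of all genes tested rose, 15.1% fell and 30.4% were called in either direction. The median change of the 7 members was 0.46, against -0.01 for all genes. In control follicles 3 members rose (Foxl2, Nr5a2 and Gata6) and none fell, against 9.96% of all genes higher, 9.19% lower and 19.1% in either direction. In AMH-treated follicles 1 member, Foxl2, rose and none fell, against 4.34% higher, 3.94% lower and 8.28% in either direction. The threshold throughout was an adjusted p of 0.05 over all genes. The test over both arms counted the arrays of a pair as independent although they shared a pool, so its SE can be too small. With the pair as a random block, which takes the same correlation for all genes, the same 5 members were called. In whole follicles, a different number of granulosa cells and a different amount of RNA per cell cannot be told apart.

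Foxl2 (chr9:98955607-98958126 in GRCm38.p6) had the smallest p of the members. At 24 h its log2 signals were 10.55, 10.31, 10.35 and 10.15 in AMH-treated follicles (replicates 1 to 4) and 10.02, 10.24, 10.35 and 10.46 in control follicles. At 12 h they were 9.47, 9.59, 9.05 and 9.08 in AMH-treated follicles and 9.35, 9.07, 9.10 and 9.13 in control follicles. The 8 arrays at 24 h all lay above the 8 arrays at 12 h, which held for 2.87% of all genes, while 3.23% lay wholly below. Foxl2 rose 2.11-fold over both arms, a change of 1.07 (SE 0.10, limma adjusted p = 1.89e-06), and ranked 24 among all genes by p. It rose 2.06-fold in AMH-treated follicles (adjusted p = 0.000324) and 2.15-fold in control follicles (adjusted p = 0.0001). The change in its second, dimmer probe set was 1.15 (SE 0.15).

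Foxo1 (chr3:52268337-52350109) varied more between arrays of a group. Its log2 signals at 24 h were 11.03, 10.46, 10.63 and 10.17 in AMH-treated follicles and 9.91, 10.26, 10.41 and 10.30 in control follicles. At 12 h they were 10.61, 10.08, 8.69 and 9.53 in AMH-treated follicles and 9.74, 9.99, 8.83 and 9.33 in control follicles. Both arrays of replicate 3 at 12 h were the lowest of their groups, and the times overlapped in each arm. Foxo1 rose 1.74-fold over both arms, a change of 0.80 (SE 0.23, limma adjusted p = 0.0150). In the single arms the change was 0.85 (SE 0.32, adjusted p = 0.118) with AMH and 0.75 (SE 0.32, adjusted p = 0.116) in controls. Without replicate 3 the change over both arms was 0.47 (adjusted p = 0.107), and without replicate 4 it was 0.79 (adjusted p = 0.0694).

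Nr5a2 (chr1:136842562-136960448) at 24 h had log2 signals of 10.79, 10.38, 10.52 and 10.18 in AMH-treated follicles and 10.26, 10.77, 10.57 and 10.52 in control follicles. After 12 h the values were 10.32, 10.41, 9.06 and 10.07 in AMH-treated follicles and 10.22, 9.51, 8.65 and 9.46 in control follicles. In control follicles the times did not overlap, but in AMH-treated follicles they did. Nr5a2 rose 2.10-fold in control follicles, a change of 1.07 (SE 0.29, limma adjusted p = 0.0188). In AMH-treated follicles the change was 0.50 (SE 0.29, adjusted p = 0.322). The test of the difference between these changes gave -0.56 (SE 0.23, 95% interval -1.07 to -0.06) with an adjusted p of 0.846. Over both arms Nr5a2 rose 1.73-fold (adjusted p = 0.00938). The control call was lost without replicate 2 (adjusted p = 0.101), without replicate 4 (adjusted p = 0.0805) and with each array centred on its median (0.89, adjusted p = 0.0524).

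Nr0b1 (chrX:86191775-86195947) stayed near the filter. At 24 h its log2 signals were 4.22, 3.94, 4.09 and 4.12 in AMH-treated follicles and 4.66, 4.23, 4.54 and 4.47 in control follicles. At 12 h they were 3.57, 4.40, 5.17 and 2.89 in AMH-treated follicles and 3.73, 3.69, 3.09 and 3.38 in control follicles. The AMH-treated arrays at 12 h held both the highest and the lowest value of all 16. No test was made, and at these signals (mean signals of 15.6 with AMH and 20.9 in controls at 24 h, 17.6 with AMH and 9.82 in controls at 12 h) differences are not interpreted.

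**Figure D1:**
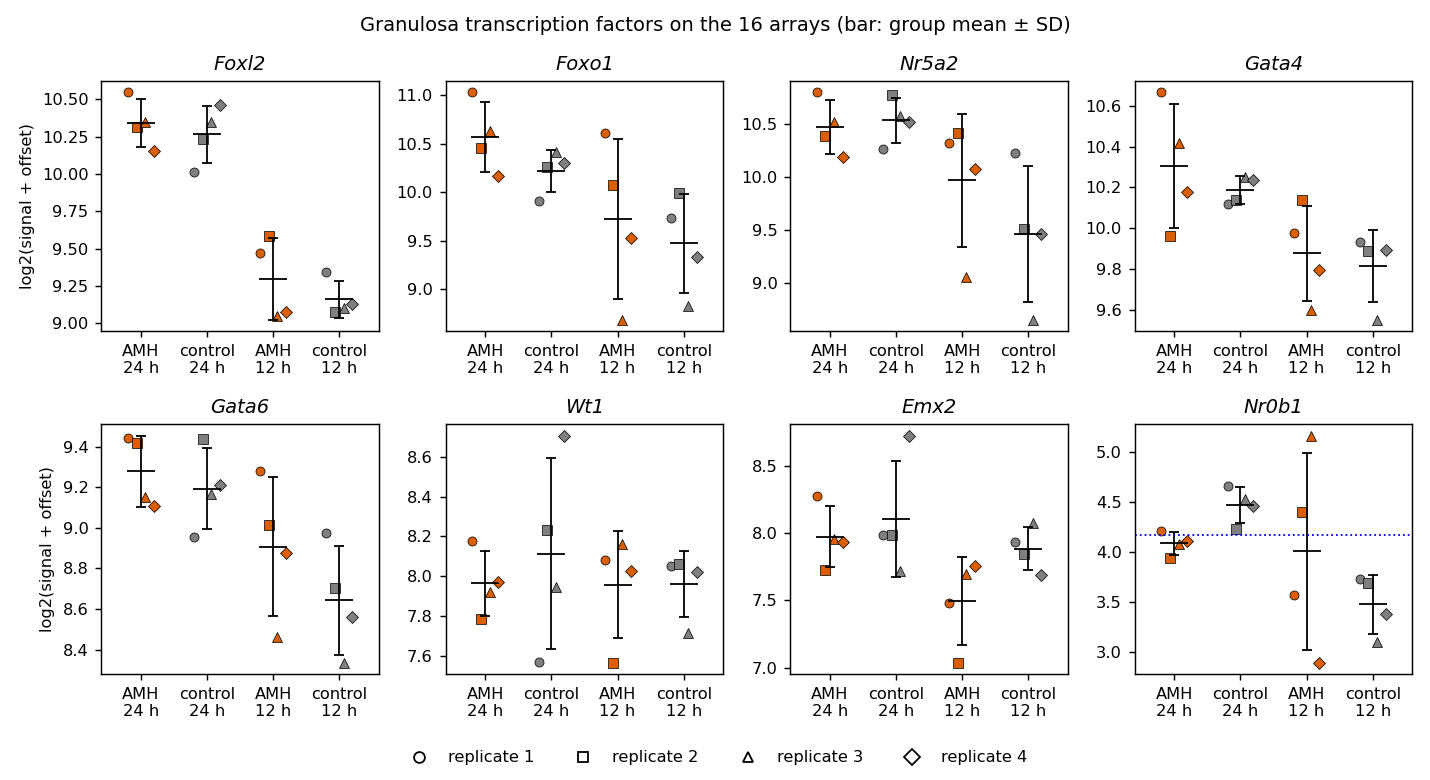
Log2(signal + 1.46) of each member on the 16 arrays, AMH-treated (orange) and control (grey) at 24 h and 12 h, with marker shapes for replicates and bars for the mean ± SD of 4 arrays. Foxl2 at 24 h lies above 12 h on every array, replicate 3 at 12 h is lowest for Foxo1, Nr5a2, Gata4 and Gata6, and the dotted line in the Nr0b1 panel is the filter level of 4.18.

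Read by their brightest probe sets, the zinc finger factors of the GATA family had smaller fitted changes than Foxl2, Foxo1 and Nr5a2. Gata4 (chr14:63198914-63271712) at 24 h had log2 signals of 10.67, 9.96, 10.42 and 10.18 in AMH-treated follicles and 10.12, 10.14, 10.25 and 10.24 in control follicles. After 12 h Gata4 had 9.98, 10.14, 9.60 and 9.79 in AMH-treated follicles and 9.93, 9.89, 9.55 and 9.89 in control follicles. The times did not overlap in control follicles, though they did with AMH. Gata4 rose 1.32-fold over both arms, a change of 0.40 (SE 0.10, limma adjusted p = 0.00730), with 0.43 (adjusted p = 0.0749) in AMH-treated and 0.37 (adjusted p = 0.0801) in control follicles. The call over both arms was lost without replicate 3 (0.28, adjusted p = 0.101) and with each array centred on its median (0.30, adjusted p = 0.0831). In AMH-treated follicles a call was gained without replicate 2 (0.63, adjusted p = 0.0379), with the mean of probe sets (0.60, adjusted p = 0.0124) and with quantile normalization (0.47, adjusted p = 0.0471). In control follicles quantile normalization gave a call too (0.41, adjusted p = 0.0472).

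Gata6 (on chromosome 18) at 24 h had log2 signals of 9.44, 9.42, 9.15 and 9.11 in AMH-treated follicles and 8.95, 9.44, 9.16 and 9.21 in control follicles. The 12 h signals of Gata6 were 9.28, 9.01, 8.46 and 8.87 in AMH-treated follicles and 8.98, 8.70, 8.33 and 8.56 in control follicles. The times overlapped in both arms. Gata6 rose 1.38-fold over both arms, a change of 0.46 (SE 0.12, limma adjusted p = 0.00842), and 1.46-fold in control follicles (adjusted p = 0.0326). In AMH-treated follicles the change was 0.37 (SE 0.17, adjusted p = 0.191). The control call was lost without replicate 2, 3 or 4, with adjusted p of 0.159, 0.104 and 0.132, and with median centring (0.37, adjusted p = 0.210). Over both arms it was lost without replicate 2 (0.42, adjusted p = 0.0610) and with median centring (0.36, adjusted p = 0.0757).

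Wt1 and Emx2 did not pass in any comparison as fitted here. Wt1 (chr2:105126529-105173614) at 24 h had log2 signals of 8.18, 7.79, 7.92 and 7.97 in AMH-treated follicles and 7.57, 8.23, 7.94 and 8.71 in control follicles. At 12 h it had 8.08, 7.56, 8.16 and 8.03 in AMH-treated follicles and 8.05, 8.06, 7.71 and 8.02 in control follicles. All 4 groups overlapped, and the change over both arms was 0.08 (95% interval -0.22 to 0.38, limma adjusted p = 0.717), or -0.026 with median centring.

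Emx2 (chr19:59458690-59465357) at 24 h had log2 signals of 8.28, 7.72, 7.96 and 7.94 in AMH-treated follicles and 7.98, 7.99, 7.72 and 8.73 in control follicles. At 12 h it had 7.48, 7.03, 7.70 and 7.76 in AMH-treated follicles and 7.93, 7.85, 8.07 and 7.69 in control follicles. The AMH-treated arrays at 12 h held the lowest values, with overlap. The change over both arms was 0.35 (95% interval 0.05 to 0.65, limma adjusted p = 0.0759), with 0.48 in AMH-treated and 0.22 in control follicles. With the oocyte marker mean as a covariate Emx2 was called over both arms (0.43, adjusted p = 0.00848) and in AMH-treated follicles (0.55, adjusted p = 0.0367).

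**Figure D2:**
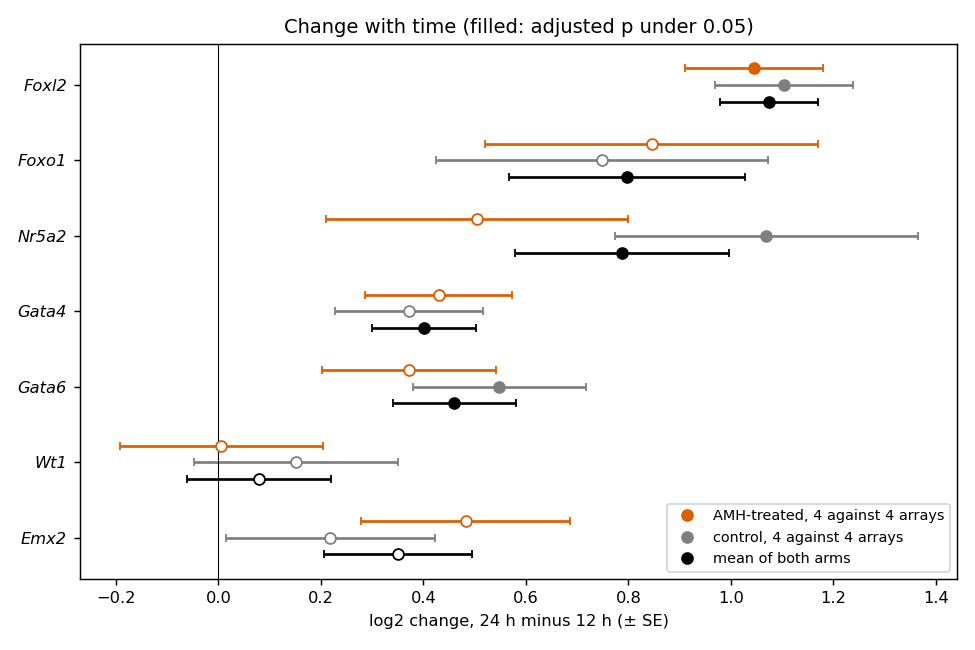
Log2 change of the 7 tested members, 24 h minus 12 h, with its SE, in AMH-treated follicles, control follicles and the mean of both arms. Filled points passed an adjusted p of 0.05: Foxl2 in all 3 comparisons, Nr5a2 and Gata6 in controls and the mean, Foxo1 and Gata4 in the mean only.

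Groups at 24 h lay wholly above 12 h for Foxl2, Nr5a2 and Gata4 in control follicles, 3 of 7 members, against 11.4% of all genes above and 10.9% below. In AMH-treated follicles this held for Foxl2 alone, 1 of 7, against 7.47% above and 7.65% below. The 12 h pair of replicate 3 was the lowest of its group for Foxo1, Nr5a2, Gata4 and Gata6 in both arms. The same pair had the lowest granulosa marker means, 7.32 with AMH and 7.17 in the control. It also had the highest endothelial means at 12 h (7.65 with AMH and 7.98 in the control), theca and stroma means (8.93 with AMH, 8.94 in the control), immune means (6.87 with AMH, 7.09 in the control) and oocyte means (7.99 with AMH, 8.92 in the control). The part of cell makeup in the members' levels was not tested. With that pair left out, an alternative chosen after its values were seen, Foxl2 was still called in each time comparison, while Gata6 was not called in control follicles (change 0.45, adjusted p = 0.0528).

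The marker lists were also compared over time. Over both arms 15.3% of all genes tested rose, 15.1% fell and 30.4% were called in either direction. The 10 granulosa markers averaged 8.88 ± 0.44 in AMH-treated and 8.69 ± 0.28 in control follicles at 24 h, against 7.89 ± 0.47 in AMH-treated and 7.87 ± 0.53 in control follicles at 12 h (SD, n = 4 each). Of them 8 rose over both arms and 1 fell, Amh, whose signal was dim. Their median change was 0.83. The 11 theca and stroma markers averaged 9.48 in AMH-treated and 9.07 in control follicles at 24 h, against 8.53 in AMH-treated and 8.32 in control follicles at 12 h, and 9 of them rose. None of 14 oocyte markers and none of 7 endothelial markers passed. Immune markers fell for 3 of 7. Surface epithelium markers fell for 2 of 8, with 1 higher, a share near that of all genes and so no result about the list. The 1 measured red blood cell marker did not pass. Over the 16 arrays, which share their groups, Gata4 correlated with the granulosa marker mean at 0.918, Foxo1 at 0.909, Foxl2 at 0.851, Nr5a2 at 0.807 and Gata6 at 0.804, but Emx2 at 0.271 and Wt1 at 0.250. Other lists correlated with these genes too. For Gata4, Foxo1, Foxl2, Nr5a2 and Gata6 the theca and stroma mean gave 0.259 to 0.705 and the red blood cell marker 0.542 to 0.619. The immune mean gave -0.763 to -0.537, the endothelial -0.747 to -0.423, the surface epithelium -0.588 to -0.348 and the oocyte mean -0.314 to -0.120.

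Several members were read by more than 1 probe set, and an added test took each of the 17 over the filter on its own among 23238. Over both arms 13 of the 17 rose, against 26.2% of all probe sets called in either direction. In control follicles 7 rose (15.8% of all called in either direction) and in AMH-treated follicles 3 (6.74%), and none fell. The 13 are repeated readings of Foxl2, Foxo1, Nr5a2, Gata4 and Gata6, already called above, so they do not count as separate members. The 4 Nr5a2 probe sets had changes of 0.79, 0.68, 1.01 and 0.88 over both arms. Those of Foxo1 had 0.80, 0.77, 0.89 and 0.40, where the last and dimmest did not pass (adjusted p = 0.165). The second Gata6 probe set averaged 8.65 with AMH and 8.51 in controls at 24 h, against 8.14 with AMH and 7.67 in controls at 12 h. The gaps of the brightest were narrower in both arms, with 9.28 and 9.19 at 24 h against 8.91 and 8.64 at 12 h. The dimmest Gata6 probe set, with a mean level of 4.19 just over the filter, had 0.45 (SE 0.24, adjusted p = 0.179) and correlated with the others at 0.310 and 0.351 over the 16 arrays. In AMH-treated follicles the second Gata4 probe set rose by 0.77 (adjusted p = 0.00378), whereas the first had 0.43 (adjusted p = 0.0858).

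**Figure D3:**
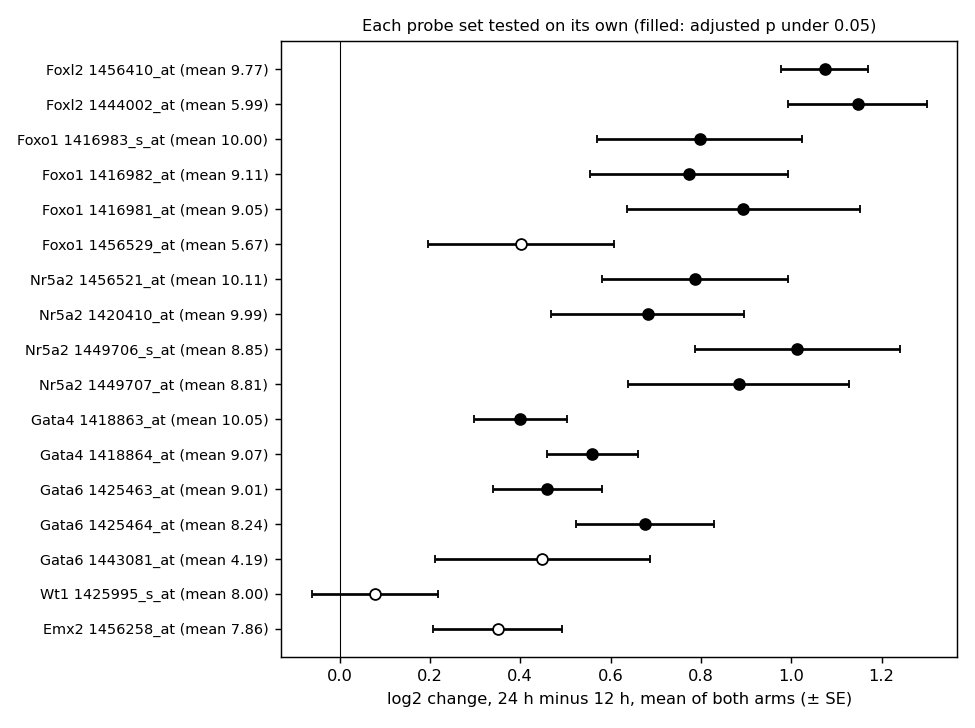
Log2 change over both arms, 24 h minus 12 h with its SE, of each of the 17 member probe sets over the filter, with its mean level in brackets. Filled points passed among 23238 probe sets: 13 of the 17, all but those of Wt1 and Emx2 and the dimmest of Gata6 and of Foxo1.

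AMH itself changed no member past the threshold. At 24 h 0 of 7 members were called, against 0.0164% of all genes (2 genes). At 12 h, in the mean of both times and in the difference between times, 0 members and 0% of all genes were called by limma. At an unadjusted p under 0.05 there were 496 genes at 24 h, 788 at 12 h, 585 in the mean and 687 in the difference. No member's AMH-treated and control groups were separate, which held for 1.46% of all genes above and 0.592% below at 24 h, and for 1.64% above and 0.969% below at 12 h. All 4 pairs lay above 0 for 5.95% of genes at 24 h and 10.2% at 12 h, and below 0 for 3.44% and 7.71%.

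Read by their brightest probe sets, Nr5a2 and Gata6 were the members above 0 in all 4 pairs at 12 h. The AMH minus control differences of Nr5a2 were 0.10, 0.90, 0.40 and 0.61, with a mean of 0.50 (SE 0.16, 95% interval 0.15 to 0.86, limma adjusted p = 0.621). Those of Gata6 were 0.30, 0.31, 0.13 and 0.31, with a mean of 0.26 (SE 0.11, adjusted p = 0.742). The other Nr5a2 probe sets had mean differences of 0.53, 0.34 and -0.17 at 12 h, and those of Gata6 had 0.47 and -0.26. The Gata6 probe set with -0.26 lay just over the filter. At 24 h the brightest probe set of each gene lay above 0 in 1 pair of 4, with means of -0.06 (95% interval -0.42 to 0.29) for Nr5a2 and 0.09 (-0.16 to 0.34) for Gata6. Emx2 at 12 h was below 0 in 3 of 4 pairs, with -0.45, -0.81, -0.38 and 0.07, a mean of -0.39 (95% interval -0.82 to 0.04, adjusted p = 0.789).

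Foxo1 had the largest mean difference at 24 h, 0.35 (95% interval -0.08 to 0.79, limma adjusted p = 1.00), from pairs of 1.12, 0.19, 0.22 and -0.13, and without replicate 1 it was 0.096. Pair 1 at 24 h held the highest difference of the 4 pairs for all 7 members, up to 1.12 for Foxo1. In this pair the granulosa marker mean was 9.37 with AMH and 8.29 in the control, the highest and the lowest of the 24 h arrays. The oocyte marker mean was 8.39 with AMH and 7.51 in the control. The part of either in the differences was not tested. Foxl2 differed by 0.08 (-0.23 to 0.38) at 24 h and by 0.13 (-0.17 to 0.44) at 12 h. These intervals are 95% intervals for single genes and do not show that AMH left the members unaltered.

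**Figure D4:**
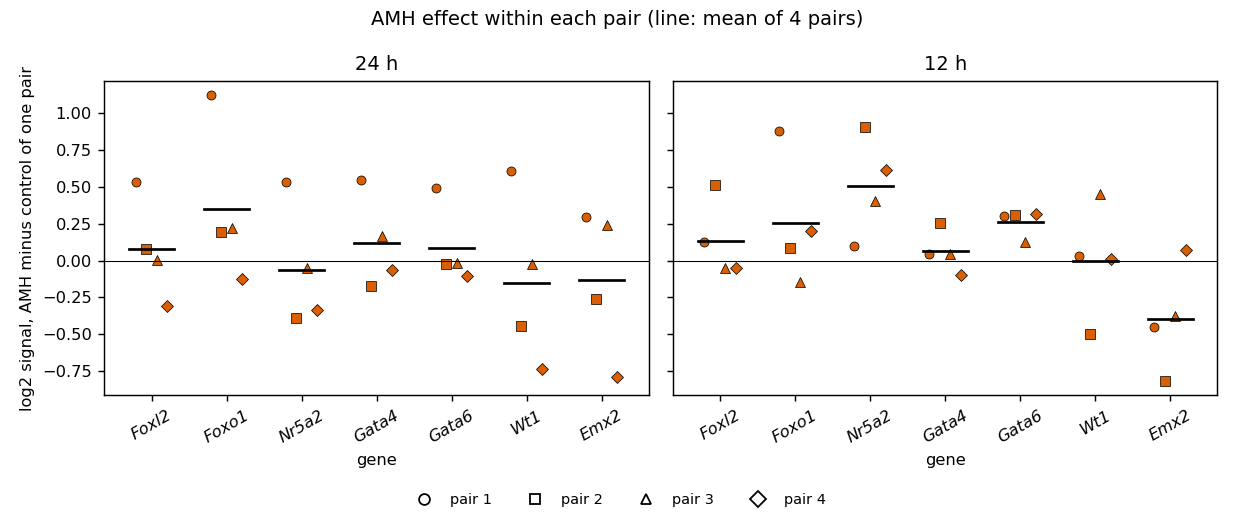
AMH minus control log2 difference within each of the 4 pairs at 24 h and 12 h for the 7 tested members, with a line at the mean of the pairs. Pair 1 (circles) is highest for every member at 24 h, and at 12 h all pairs of Nr5a2 and Gata6 lie above 0.

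Members varied together between arrays to different degrees. Over the 16 arrays Gata6 correlated with Nr5a2 at 0.940 and with Foxo1 at 0.908, and at 0.888 and 0.848 when each group's mean was taken out. Foxl2 and Gata4 correlated at 0.841 (0.704 within groups). Wt1 and Emx2 correlated with each other at 0.623 (0.710 within groups) and with the other members at 0.105 to 0.424. Within groups the correlations with the other members were 0.121 to 0.227 for Wt1 and -0.213 to -0.0528 for Emx2. By Pearson's r over the 16 arrays, the genes most like Foxl2 were Sytl4 (0.984), Plxnc1 (0.982) and Pgbd5 (0.967). Those most like Gata4 were Apoc3, Hey2 and Cyp2s1 (0.930 to 0.954), those most like Foxo1 were Prkar2b, Spata33 and Mras (0.933 to 0.938), and those most like Wt1 were Erbb2, AA414768 and Slc35a1 (0.769 to 0.849). Atp1b2 was the nearest to both Gata6 and Nr5a2 (0.946 each), followed by Mmp11 (0.940) for Gata6 and Prkcd (0.943) for Nr5a2, with Gata6 and Nr5a2 next for each other. Emx2 was most like Slc26a6, Ss18l1 and Srsf11 (0.821 to 0.853).

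Foxl2, Emx2 and Wt1 each have a noncoding neighbour on the opposite strand, a set chosen after values were seen. Foxl2os at 24 h had log2 signals of 10.38, 9.96, 10.41 and 9.80 in AMH-treated follicles and 9.80, 9.91, 9.99 and 10.31 in control follicles. At 12 h it had 9.74, 9.62, 9.04 and 9.14 in AMH-treated follicles and 9.22, 9.16, 9.04 and 8.41 in control follicles. As for Foxl2, all arrays at 24 h lay above those at 12 h. Foxl2os rose by 0.90 (SE 0.14, limma adjusted p = 0.000252) over both arms and correlated with Foxl2 at 0.913, or 0.737 within groups. Emx2os, 54 bases from Emx2, rose by 0.42 (adjusted p = 0.0333) and correlated with Emx2 at 0.552. Wt1os, 18 bases from Wt1, had 0.44 (limma adjusted p = 0.132) and correlated with Wt1 at 0.0278. Its mean level of 4.50 was near the filter of 4.18, against 9.62 for Foxl2os, so the 2 correlations are not comparable.

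**Figure D5:**
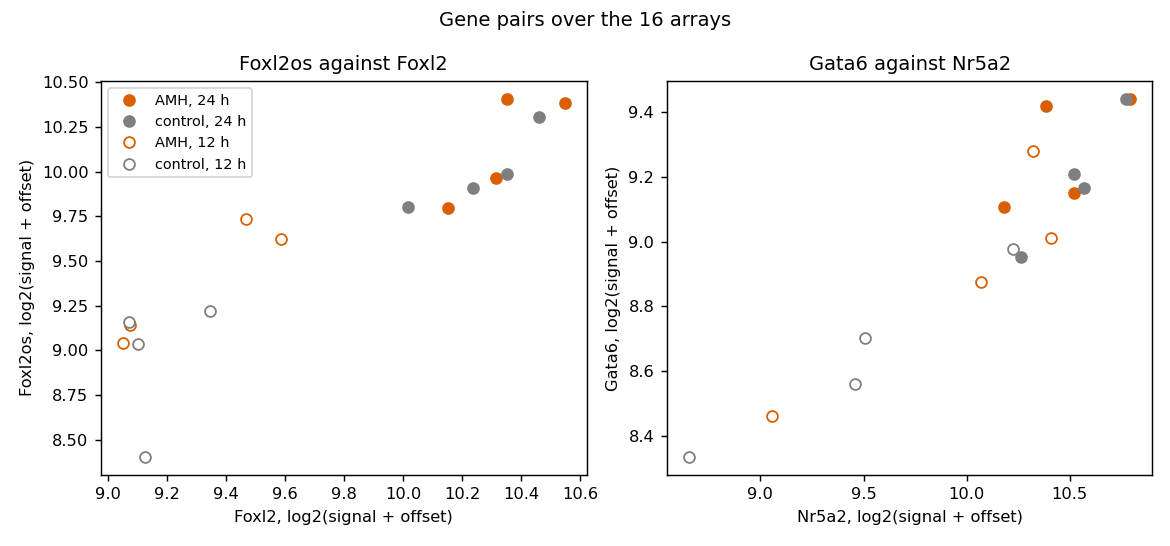
Log2(signal + 1.46) of Foxl2os against Foxl2 and of Gata6 against Nr5a2 on the 16 arrays, filled at 24 h and open at 12 h, orange for AMH-treated and grey for control follicles. Foxl2 and Foxl2os separate the times on both axes, whereas Gata6 and Nr5a2 vary together with overlap of the times.

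Over both arms, where 15.3% of all genes tested rose and 15.1% fell, genes that work with the members gave the following counts. Of 15 measured partners and ovary determinants, 4 passed, a share near the 30.4% of all genes and so no result about the list. The 2 that rose were the estrogen receptor gene Esr2 (1.70, SE 0.28) and Nr5a1 (0.35, SE 0.10), which encodes the NR5A receptor SF-1. The other 2 that passed fell, Zfpm1 (-0.99, SE 0.13), which encodes the GATA cofactor FOG1, and the signalling gene Wnt4 (-0.44, SE 0.14). Of 8 measured testis pathway genes, Dhh (1.54) and Ptgds (1.74) rose, and Sox9 (-0.67), the Sertoli cell factor that FOXL2 represses in mouse, fell, as did the probe set of Sry (-0.83). Sry lies on the Y chromosome, which female mice lack, so that value is not read as its RNA.

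Of 5 measured family relatives, 3 rose over both arms: Nr0b2 (1.14, SE 0.13), which encodes a corepressor of NR5A receptors (SHP), Foxo3 (0.34) and Nr5a1. Gata2 (-0.72, limma adjusted p = 0.0619) and Foxo4 (-0.03) did not pass. Of 11 measured hormone and steroid targets, 8 rose, among them Fshr, the FSH receptor (2.41), the activin and inhibin subunit gene Inhba, Amhr2 (0.80) and Hsd3b1 (0.68), and Amh fell (-1.32). Amh, Amhr2, Inha, Inhba, Fst and Fshr were also among the granulosa markers, so the counts of the 2 lists are not separate observations. The 12 h levels of Fshr, 4.22 with AMH and 3.90 in controls, were near the filter of 4.18, so the size of its change is uncertain. The 24 h levels of Amh, 3.25 with AMH and 3.85 in controls, lay under the filter, so the size of its fall is uncertain too. Of 13 FOXO targets 5 rose and none fell, among them Pik3ip1 (1.17), Sesn3 (0.61), Cdkn1b (0.57) and Trp53inp1 (0.29). The list medians were 0.11 for partners, 0.09 for the testis pathway, 0.34 for relatives, 0.84 for hormone and steroid targets and 0.17 for FOXO targets, against -0.01 for all genes.

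In control follicles alone 9.96% of all genes rose, 9.19% fell and 19.1% were called in either direction. Of 15 partners Esr2 rose and Zfpm1 fell, and of 8 testis pathway genes Dhh rose, shares under that of all genes and so no result about these lists. Of 5 relatives Nr0b2 and Foxo3 rose, as did 4 of 11 hormone and steroid targets and 5 of 13 FOXO targets. In AMH-treated follicles alone 4.34% of all genes rose, 3.94% fell and 8.28% were called in either direction. Of 15 partners Esr2 rose and Zfpm1 fell, of 8 testis pathway genes Dhh and Ptgds rose, and of 5 relatives Nr0b2 rose. Of 11 hormone and steroid targets 2 rose (Inhba and Fshr), and of 13 FOXO targets 2 rose (Sesn3 and Pik3ip1). Counts of 1 or 2 genes are too small to be read as results about the lists. In the AMH comparisons none of the companion or marker genes passed.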

How the data were processed

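RNA of cultured mouse follicles was measured on 16 Affymetrix arrays, 4 in each of 4 groups taken from the sample titles. Each probe set carried a deposited linear signal intensity, computed by the authors in MAS5 according to the submitters' processing notes; its version is not given in the sources used here, and detection calls were not used. The table held 45101 probe sets, from which 64 controls were dropped, and 932 with several symbols were not named. From the deposited intensities log2(signal + 1.46) was computed, the offset being the 10th percentile of all values. A filter kept probe sets whose mean reached the 40th percentile, and the brightest stood for each gene. Array medians were 27.8 to 40.2. Symbols came from GEO's platform annotation, which can be old, and promoters and positions from RefSeq (GRCm38.p6). The promoters of Wt1, Gata4 and Gata6 were not analysed here.

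Linear models used limma 3.58.1 under R 4.3.3 (lmFit, eBayes with a mean trend), with Benjamini-Hochberg adjustment over all 12172 genes. They were also run on simulated data with independent noise on each array, which held no effect of a shared pool. Figures used matplotlib 3.10.9 in Python 3.11.15. AMH was compared with control with the 8 pairs as a block, since the design text pairs the samples and both arms came from one pool. With group means taken out, the 2 arrays of a pair correlated at -0.437, 0.327, 0.200 and -0.287 for the 24 h pairs; the 12 h pairs gave 0.299, 0.349, 0.560 and 0.214. The times were compared over 4 group means without a block, so the shared pool of a pair was ignored there. Whether experiments are independent beyond their pools is not stated, so p-values measure the spread between these samples. The members and all lists (partners and ovary determinants, testis pathway, family relatives, hormone and steroid targets, FOXO targets and the cell type markers) were chosen with earlier results of these data known. All members are named, up to 4 passing genes of a list by smallest p, relatives by family name, and the 3 genes most correlated with each member; Amh, the antisense neighbours and Inha were named after values were seen. Alternatives were another offset, no filter, quantile normalization, median centring, the mean of probe sets, the oocyte marker mean as a covariate, other blocks and each replicate left out; single probe sets and the 12 h pair of replicate 3 left out were added after seeing the data.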

Additional observations from a re-analysis of the deposited data

Results flagged for a closer look

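Among 28 combinations of a tested member and a group, 2 arrays stood apart from the other 3 of their group by Dixon's criterion, which chance alone meets in about 1 of 20 groups. Both belong to replicate 3 of the control follicles at 12 h. Wt1 had a log2 signal of 7.71 there, with a gap to the nearest array of 0.877 of the group's range. Gata4 had 9.55 there, with a gap of 0.885 of the range.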

How the results depend on the processing

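Foxl2 stayed past the threshold in all 3 time comparisons under each of 13 alternatives, with changes of 0.97 to 1.14 over both arms, and no member was called in an AMH comparison under any of 12. Over both arms Nr5a2 was called in 13, and Gata4, Gata6 and Foxo1 in 11 each. In control follicles Nr5a2 was called in 10 and Gata6 in 8. Members called over both arms were 3 in place of 5 with median centring, 6 with the oocyte covariate, which added Emx2, and 3 to 5 with a replicate left out. In AMH-treated follicles they were 2 in place of 1 with quantile normalization, the mean of probe sets (Gata4 added in both) or the oocyte covariate (Emx2 added), and 1 to 2 with a replicate left out. In control follicles they were 1 in place of 3 with median centring, and 1 to 3 with a replicate left out. With median centring the median change of all genes was -0.12 over both arms, -0.19 in controls and -0.05 with AMH, against -0.01, -0.01 and -0.02 as fitted. The share of higher calls was then 32.0%, 24.5% and 49.7%, against 50.3%, 52.0% and 52.4%. The median AMH effect of all genes with median centring was 0.12 at 24 h (0.006 as fitted) and 0.15 in the difference between times (-0.002). Genes called with a replicate left out were 2373 to 3037 over both arms (3706 with all), 344 to 638 with AMH (1008, and 567 with median centring) and 1185 to 1552 in controls (2330). With the number as a replicate block over both times these counts were 3938, 1235 and 2634, and with the pair as a random block 3262, 1005 and 2321. The labels do not say that a number joins the times.

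For AMH at 24 h the 2 genes called became 0 without the filter, with quantile normalization, the mean of probe sets, no replicate block or the 12 h pair of replicate 3 left out, and 0 to 1 with a replicate left out. At 12 h there was 1 with quantile normalization and 2 with the oocyte covariate, as in the difference between times, where a replicate left out gave 0 to 1, as in the mean of both times. Uncalled changes also turned sign. Wt1 over time became -0.026 over both arms and -0.029 in controls with median centring, and with AMH -0.022 there and -0.018 with quantile normalization. At 24 h the AMH effect became 0.055 for Nr5a2 with median centring and -0.13 for Gata6 with the mean of probe sets. At 12 h it became -0.078 for Gata4 with the mean of probe sets and 0.057 for Wt1 with the oocyte covariate. The difference between times became 0.093 for Foxl2 and 0.0066 for Wt1 with median centring, 0.048 for Foxl2 with the mean of probe sets, and 0.0051 for Wt1 and -0.037 for Foxo1 with the 12 h pair of replicate 3 left out. With a replicate left out, the AMH effect at 24 h ran over -0.076 to 0.20 for Foxl2, -0.40 to 0.046 for Wt1, -0.023 to 0.22 for Gata4, -0.046 to 0.15 for Gata6, -0.26 to 0.048 for Nr5a2 and -0.27 to 0.091 for Emx2. At 12 h it ran over -0.15 to 0.16 for Wt1 and -0.0016 to 0.11 for Gata4, and in the mean of times over -0.21 to 0.056 for Wt1. The difference between times ran over -0.21 to 0.067 for Foxl2, -0.39 to 0.054 for Wt1 and -0.090 to 0.22 for Gata4. Over time Wt1 ran over -0.00055 to 0.17 over both arms, -0.067 to 0.088 with AMH and -0.027 to 0.36 in controls, and Emx2 over -0.055 to 0.41 in controls. Leaving out a replicate also means fewer arrays; the cause of the other shifts was not tested. Signals near or under the filter, as for Nr0b1, Wt1os, the third Gata6 probe set, Fshr at 12 h and Amh at 24 h, limit what can be read from them.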
